A study of Rattus norvegicus with 7 samples.

Results

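The genes described here were those of the rat major histocompatibility complex (MHC, called RT1 in the rat) and the genes that supply it with peptides. They were chosen by symbol. Every gene whose symbol starts with RT1- was taken, and with them B2m, Tap1, Tap2, Tapbp, Psmb8, Psmb9, Psmb10, Cd74, Ciita, Nlrc5 and Erap1. Of the 16514 symbols in the tables of the 2 tissues, 46 were members, and 40 of these were measured in both tissues. They comprised 27 class I or class I-like RT1 genes, 10 class II RT1 genes and 9 of the 11 other symbols, and together they were listed as 108 loci, 52 in hippocampus and 56 in hypothalamus. Psmb10 and Nlrc5 were not analysed here. The spread of some RT1 loci in hypothalamus was known when the gene set was proposed, so that spread is given below as a description.

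RNA was sequenced from the hippocampus (4 libraries) and the hypothalamus (3 libraries) of male Sprague Dawley rats. The animals were 2 months old at the start and ate food that contained DHA (docosahexaenoic acid, a polyunsaturated lipid of the omega-3 series) for 6 weeks. Only libraries of DHA-fed rats were analysed, which leaves the diet without a control, and the comparisons are those among replicates and those between the tissues. Sprague Dawley is an outbred stock, and the labels give no MHC haplotype for any animal and do not say whether a hippocampus and a hypothalamus came from the same rat.

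Class I molecules consist of a polymorphic heavy chain and the light chain B2m. They carry peptides from the cytosol to the cell surface, after the immunoproteasome has cut them and the TAP transporter has brought them into the endoplasmic reticulum. Class II molecules are dimers of an alpha and a beta chain that assemble around the invariant chain Cd74 and carry peptides from endosomes. In healthy brain, class II molecules are known mainly from cells at its borders, such as perivascular and meningeal macrophages, and the transcription of class II genes depends on the coactivator Ciita.

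Class II promoters are known for a shared layout of an X box and a Y box, which is shown here as background to the class II chains measured below. Of the 46 members, 39 had a promoter in the RefSeq table for the rat build GRCr8, a window of 250 bases before to 50 bases after each gene's start. Promoters were searched on both strands for 2 sets of letters. The core of the X box was searched as AG, any 2 bases, AC, any 2 bases and ATG, and the core of the Y box as ATTGG. The X letters followed on the same strand by the Y letters after 5 to 40 bases were found in 5 of 9 class II promoters, in 1 of 23 class I promoters (RT1-CE10) and in 0.0473% of all 27457 promoters. Separately, the X letters were found in 3.14% of all promoters and the Y letters in 37.7%. In the following stretches the X and Y letters are in capitals. They lie on chromosome 20 at chr20:4515324-4515378 (plus strand), chr20:4560230-4560283 (minus), chr20:4604167-4604220 (minus), chr20:4627594-4627645 (minus) and chr20:4576969-4577026 (plus), all upstream of the annotated start.
RT1-Da: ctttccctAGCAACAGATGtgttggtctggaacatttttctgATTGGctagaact
RT1-Db1: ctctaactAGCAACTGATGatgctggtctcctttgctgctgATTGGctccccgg
RT1-Bb: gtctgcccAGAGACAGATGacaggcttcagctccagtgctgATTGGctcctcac
RT1-DOb: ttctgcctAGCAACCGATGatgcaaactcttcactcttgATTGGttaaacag
RT1-Ba: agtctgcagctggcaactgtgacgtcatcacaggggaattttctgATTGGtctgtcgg
The X and Y letters were 23 bases apart in RT1-Da, 22 in RT1-Db1 and RT1-Bb, and 20 in RT1-DOb. In RT1-Ba only the Y letters were found. RT1-Db2, whose letters are not shown, was the fifth class II gene with both. A match of letters is a description of these windows and shows no binding.

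Some class I copies were near-identical in part of their promoters. The letters GGGGA directly followed by TTCCC, those of the NF-kappaB site called enhancer A, were found in 5 of 23 class I promoters, in 0 of 9 class II promoters and in 0.12% of all promoters. The letters of the interferon element, GAA, any 2 bases and GAAA, which on the other strand read TTTC, any 2 bases and TTC, were found in 8 class I promoters, in 4 of the other members (Cd74, Tap2, Psmb8 and Tapbp) and in 8.43% of all promoters. Both are in capitals in the following stretches of 46 bases upstream of 4 copies, at chr20:4907071-4907116 (plus), chr20:4872685-4872730 (plus), chr20:3265541-3265586 (minus) and chr20:3385140-3385185 (minus).
RT1-A1: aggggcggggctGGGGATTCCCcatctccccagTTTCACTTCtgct
RT1-A2: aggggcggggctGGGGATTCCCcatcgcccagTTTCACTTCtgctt
RT1-CE16: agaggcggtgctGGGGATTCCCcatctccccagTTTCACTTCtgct
RT1-CE10: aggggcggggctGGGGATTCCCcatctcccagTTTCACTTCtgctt
The 4 hold both sets of letters, so they do not stand for the other class I promoters. RT1-CE13, the fifth promoter with both, is not shown, and its gene was listed at 0 in every library. Identity between these stretches ranged from 89.4% (RT1-A2 and RT1-CE16) to 97.8% (RT1-A2 and RT1-CE10). RT1-A1 and RT1-CE16 were 95.7% identical. The stretches were cut around letters that all 4 hold, which raises their identity. They lie upstream of the start, so their identity does not describe the reads of these copies. The stretches come from the reference strain, and the copies carried by each outbred animal were not analysed here.

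Expression was given as FPKM, fragments per kilobase of transcript and scaled to the library, so that levels can be compared between genes of 1 table. Counts were not given and the depth of each library is therefore unknown, so no interval for counting error could be computed. A value of exactly 0 can be a failed estimate and is written here as listed at 0. How reads that match several copies were assigned is not given in the sources used here, nor is the strand setting. For near-identical RT1 copies, reads of 1 animal's alleles can therefore be listed under a neighbouring copy, or under none. Values of single class I loci are to be read with that uncertainty, and sums over all loci of a gene or a class are given beside them. The same uncertainty holds for class II genes and Tap2 where they are listed at several loci.

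Deposited FPKM summed to between 370020 and 391349 in hippocampus and to between 443335 and 471484 in hypothalamus. The tissue labels were checked against marker genes, and 5 of 5 hypothalamic markers lay higher in hypothalamus and 5 of 5 hippocampal markers higher in hippocampus. Replicate 1 of each tissue stood apart in its low values. Among loci under 0.1 FPKM, ratios between the other libraries gathered at a single value in 19.5% to 25% of loci, whereas ratios that involved replicate 1 did so in 1.8% to 3.66%. Loci of genes with several loci also divided differently in replicate 1, as given for RT1-A1, RT1-M3-1 and RT1-S3 below.

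Transcripts of the class I light chain were abundant and even among replicates. In hippocampus the summed heavy chains were lower and were listed at many loci. In hypothalamus their sum relative to B2m was 1.45, 32.6 and 0.425 in replicates 1 to 3. A single locus held 66.5%, 97.9% and 51.2% of that sum. B2m read 155, 145, 182 and 160 FPKM in replicates 1 to 4 of hippocampus, and the mean was 160.5 ± 15.9 (SD, n = 4). In hypothalamus it read 414, 430 and 328 FPKM in replicates 1 to 3, a mean of 390.5 ± 55.0 (SD, n = 3). Every hypothalamic library lay above every hippocampal one as deposited, and also after the rescaling described below. After rescaling, 24.4% of all symbols compared were separated in this direction, and the share as deposited was not computed. In bulk tissue, fewer cells of a type and less RNA per cell cannot be told apart, here and below.

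In hippocampus, 23 class I genes were listed as 29 loci, of which 13 averaged 1 FPKM or more and 5 were at 0 in every library. Their summed FPKM was 78.1, 74.3, 88.0 and 55.5 in replicates 1 to 4, a mean of 74.0 ± 13.6 (SD, n = 4). Relative to B2m, the sum was 0.505, 0.513, 0.482 and 0.347. The class as a whole thus differed by 1.58 times between its lowest and its highest library.

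The loci behind that sum did not keep their order from library to library. RT1-A1, a classical class I heavy chain, had 3 hippocampal loci. Locus XLOC_016452 read 0.542, 18.2, 13.6 and 11.6 FPKM in replicates 1 to 4, whereas locus XLOC_016796 read 49.0, 4.19, 1.44 and 4.5 FPKM. The library lowest at one locus was thus the highest at the other, and it was replicate 1 in both cases. The third locus, XLOC_016454, read 1.02, 1.99, 4.72 and 2.73 FPKM. Summed over the 3 loci, RT1-A1 read 50.5, 24.3, 19.8 and 18.9 FPKM, so replicate 1 stayed the highest and the other libraries lay close together.

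RT1-M3-1, a class I-like gene of the M region, was also lowest in replicate 1 at 1 locus, but that library was not the highest at the other. Its locus XLOC_016356 read 2.39, 15.6, 11.4 and 10.9 FPKM, lowest in replicate 1, while its locus XLOC_016712 read 7.22, 6.29, 8.12 and 11.8 FPKM. The sum of both was 9.61, 21.9, 19.5 and 22.6 FPKM, again lowest in replicate 1. RT1-A2, a second classical class I gene, followed neither pattern. Its locus XLOC_016795 read 0.462, 8.02, 11.1 and 0.350 FPKM and its locus XLOC_016797 read 1.32, 0, 5.65 and 0 FPKM, so that replicates 2 and 3 were high at the former and replicate 3 at the latter. The sum over its 4 loci was 2.51, 8.59, 17.5 and 0.616 FPKM.

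The RT1-CE genes and RT1-S3 form further class I groups. RT1-CE16 read 0.347, 1.35, 4.24 and 0.0946 FPKM in hippocampus, and RT1-S3 read 5.81, 6.09, 10.4 and 3.47 FPKM. Both were highest in replicate 3 and lowest in replicate 4. RT1-CE14 was more even, at 2.72, 4.13, 3.66 and 3.32 FPKM.

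**Figure D1:**
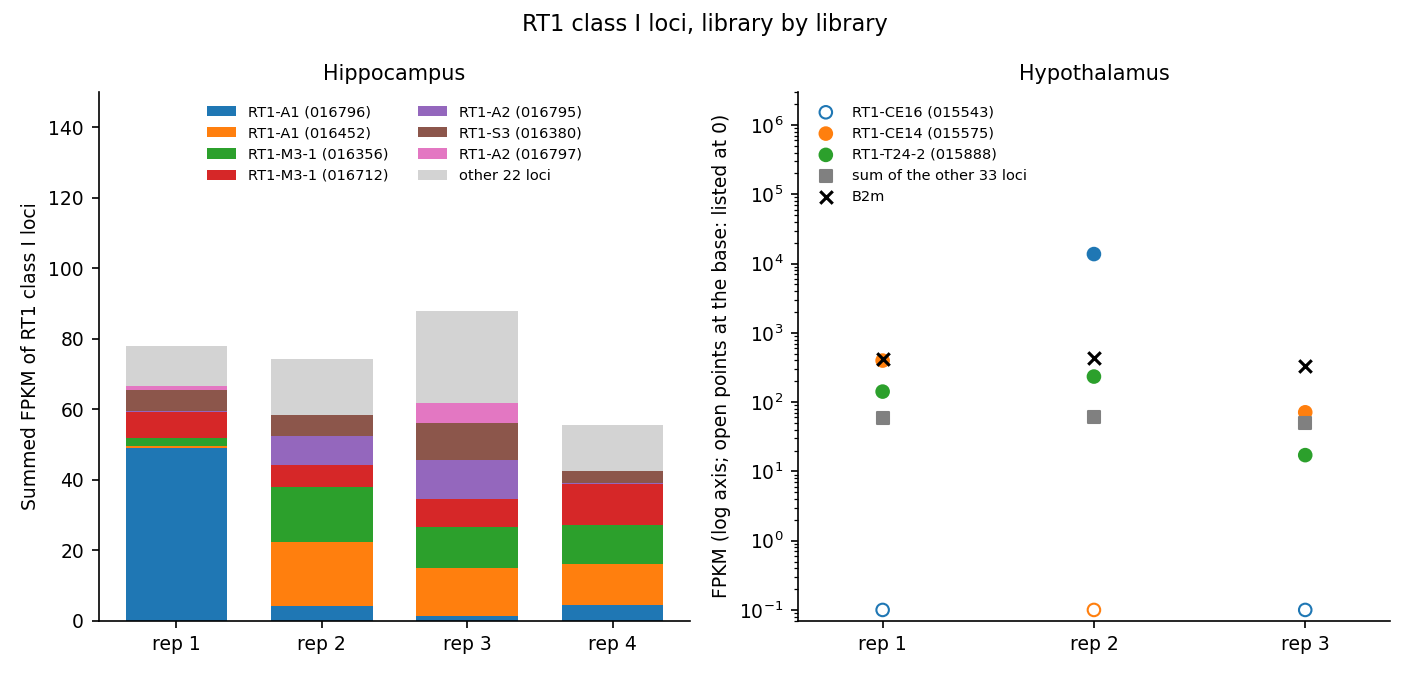
Left: summed FPKM of RT1 class I loci in the 4 hippocampal libraries (linear axis), with coloured segments for the 7 named loci and grey for the other 22. Right: FPKM in the 3 hypothalamic libraries (log axis) of the 3 leading class I loci, of the summed other 33 loci and of B2m, with open points at the base for values listed at 0. The hippocampal totals lie between 55.5 and 88.0 while their composition changes, and RT1-CE16 is listed at 0 in 2 hypothalamic libraries and at 13723 FPKM in the other.

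In hypothalamus, 3 class I loci reached values that no class I locus had in hippocampus, and none of the 3 was even among replicates. RT1-CE16 (XLOC_015543) was listed at 0 in replicates 1 and 3 and at 13723 FPKM in replicate 2. There it ranked 1 among all loci of the library, with 97.9% of the class I sum and 3.04% of the library's summed FPKM. RT1-CE14 (XLOC_015575) read 398, 0 and 71.3 FPKM in replicates 1 to 3. It was the highest class I locus in replicates 1 and 3, the libraries in which RT1-CE16 was listed at 0, and was itself listed at 0 in replicate 2. Its second locus was even, at 1.84, 1.64 and 1.70 FPKM. RT1-T24-2 (XLOC_015888), a class I-like gene, read 142, 234 and 17.2 FPKM. Its second locus did not exceed 0.0944 FPKM, and its single hippocampal locus did not exceed 0.0158 FPKM.

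Adding loci together did not even out these 3 genes. The summed FPKM of all RT1-CE loci was 402, 13727 and 75.3 in hypothalamus, against 4.43, 7.86, 13.2 and 3.98 in hippocampus. The sum over all 36 class I loci was 599, 14019 and 139 FPKM. Left without the 3 leading loci, a choice made after the values were seen, the class I sum was 58.8, 61.9 and 50.7 FPKM, a mean of 57.1 ± 5.75 (SD, n = 3). The remaining 33 loci thus stood between 0.142 and 0.155 relative to B2m, close together in all 3 libraries.

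The remaining hypothalamic class I genes varied less than these 3. RT1-M3-1, with 1 locus in this table, was even, at 22.1, 17.6 and 15.8 FPKM. RT1-S3 read 10.8, 14.3 and 5.31 FPKM at XLOC_015527, its higher locus. Its lower locus XLOC_015883 read 3.40, 0.0189 and 0.0107 FPKM, so that only replicate 1 had a value above 1. RT1-A1 again divided among 3 loci. It read 6.95, 6.73 and 5.46 FPKM at XLOC_015600, 0.188, 3.30 and 9.35 FPKM at XLOC_015598, and 2.74, 0 and 0 FPKM at XLOC_015596. Summed, RT1-A1 read 9.88, 10.04 and 14.8 FPKM, in which replicate 1 no longer stood apart.

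Counted by the SD of log2(FPKM + 1) over replicates, 6 of the 20 hippocampal member loci that averaged 1 FPKM or more had an SD over 1, against 5.68% of all such loci. All 6 were class I loci (of RT1-A1, RT1-A2, RT1-M3-1 and RT1-CE16), and neither the 1 class II locus nor any of the 6 other loci was among them. In hypothalamus it was 5 of 22 member loci, against 3.49% of all loci, and again class I loci alone (RT1-CE16, RT1-CE14, RT1-T24-2, RT1-A1 and RT1-S3). The median SD was 0.61 over hippocampal member loci and 0.24 over all loci, and 0.51 and 0.25 in hypothalamus. When the loci of a gene were summed, it was 2 of 16 genes in hippocampus, against 1.27% of all symbols, and 3 of 19 in hypothalamus, against 1.04%. Without replicate 1 it was 5 of 20 loci in hippocampus, against 2.12% of all loci, and 3 of 22 in hypothalamus, against 1.36%. The counts also fell with a pseudocount of 5 and among symbols with a single locus, as given in the closing section. The part that read assignment or whatever sets replicate 1 apart had in this spread was not tested.

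The remaining class I genes were low. In hippocampus, 13 of 23 class I genes were below 1 FPKM in every library and 5 were listed at 0 throughout. In hypothalamus it was 16 of 27 and again 5 at 0. Named after their values were seen, RT1-N2 read 3.51, 3.34, 3.67 and 4.14 FPKM in hippocampus and 0.395, 0.602 and 0.636 FPKM in hypothalamus, without overlap. After rescaling, 28.2% of all symbols compared lay higher in every hippocampal library. RT1-T24-4, measured in hypothalamus alone, read 3.76, 4.6 and 3.01 FPKM at its highest locus.

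Genes that supply peptides to class I molecules were expressed at low levels. Psmb9, a catalytic subunit of the immunoproteasome, read 4.05, 2.61, 3.99 and 1.83 FPKM in hippocampus and 9.26, 9.46 and 7.49 FPKM in hypothalamus. Psmb8, another such subunit, read 1.05, 0.525, 1.18 and 0.352 FPKM in hippocampus and 3.37, 3.86 and 3.66 FPKM in hypothalamus. For both subunits every hypothalamic library lay above every hippocampal one, also after rescaling, where this held for 24.4% of all symbols compared. Erap1, the aminopeptidase that trims peptides in the endoplasmic reticulum, did not separate the tissues. It read 3.84, 3.004, 6.96 and 8.55 FPKM in hippocampus and 7.70, 8.30 and 5.08 FPKM in hypothalamus.

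The peptide transporter and its partner were measured mainly in hippocampus. Tap1, a subunit of the transporter, read 2.26, 1.36, 2.56 and 1.16 FPKM. Tap2, the other subunit, did not exceed 0.0584 FPKM at either of its hippocampal loci and 0.0165 FPKM at its hypothalamic one. Tapbp, which tethers class I molecules to the transporter, read 1.34, 2.15, 0.850 and 0.590 FPKM. Tap1 and Tapbp were not analysed in hypothalamus.

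The invariant chain Cd74 lay above every class II chain in each library. It read 22.7, 11.4, 46.8 and 19.1 FPKM in replicates 1 to 4 of hippocampus, and the mean was 25.0 ± 15.3 (SD, n = 4). In hypothalamus it read 63.0, 97.5 and 48.5 FPKM, a mean of 69.6 ± 25.1 (SD, n = 3). The lowest hypothalamic library lay just above the highest hippocampal one as deposited. RT1-Da, the alpha chain of the D molecule, read 3.12, 2.26, 12.3 and 6.14 FPKM in hippocampus and 15.1, 16.2 and 8.01 FPKM in hypothalamus. Its hippocampal replicate 3 lay within the hypothalamic range.

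RT1-Db1, the beta chain of the D molecule, read 1.01, 0.372, 1.57 and 0.971 FPKM in hippocampus and 3.97, 9.41 and 2.99 FPKM in hypothalamus. RT1-Ba and RT1-Bb, the chains of the B molecule, are named after their values were seen. RT1-Ba read 1.18, 0.244, 0.890 and 0.248 FPKM in hippocampus and 6.57, 4.12 and 2.08 FPKM in hypothalamus. RT1-Bb read 0.462, 0.0280, 1.08 and 0 FPKM in hippocampus and 3.19, 3.98 and 2.25 FPKM in hypothalamus. In these 3 chains the tissues did not overlap, as deposited or after rescaling. After rescaling, 24.4% of all symbols compared lay higher in every hypothalamic library.

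The remaining class II genes were listed near 0 in both tissues. RT1-DMa, RT1-DMb and RT1-Ha, and Tap2 in hippocampus, were each listed at 2 loci. Brd2, a gene among the RT1 genes that presents no antigen, was also near 0. It read between 0.0672 and 0.222 FPKM in hippocampus and between 0.0224 and 0.0364 FPKM in hypothalamus. Whether reads of this region were lost or listed elsewhere was not tested. RT1-DMa and RT1-DMb, the chains of the molecule that exchanges peptides on class II, did not exceed 0.187 FPKM and 0.202 FPKM at any locus. RT1-DOb, the beta chain of its modulator, reached at most 0.382 FPKM in hippocampus and 0.517 FPKM in hypothalamus. RT1-DOa, RT1-Db2 and RT1-Ha were listed at 0 in every hippocampal library. Ciita, the coactivator of class II genes, read 0.0583, 0.0159, 0.105 and 0.0962 FPKM in hippocampus and 0.0487, 0.0689 and 0.0346 FPKM in hypothalamus, so its levels overlapped between the tissues.

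**Figure D2:**
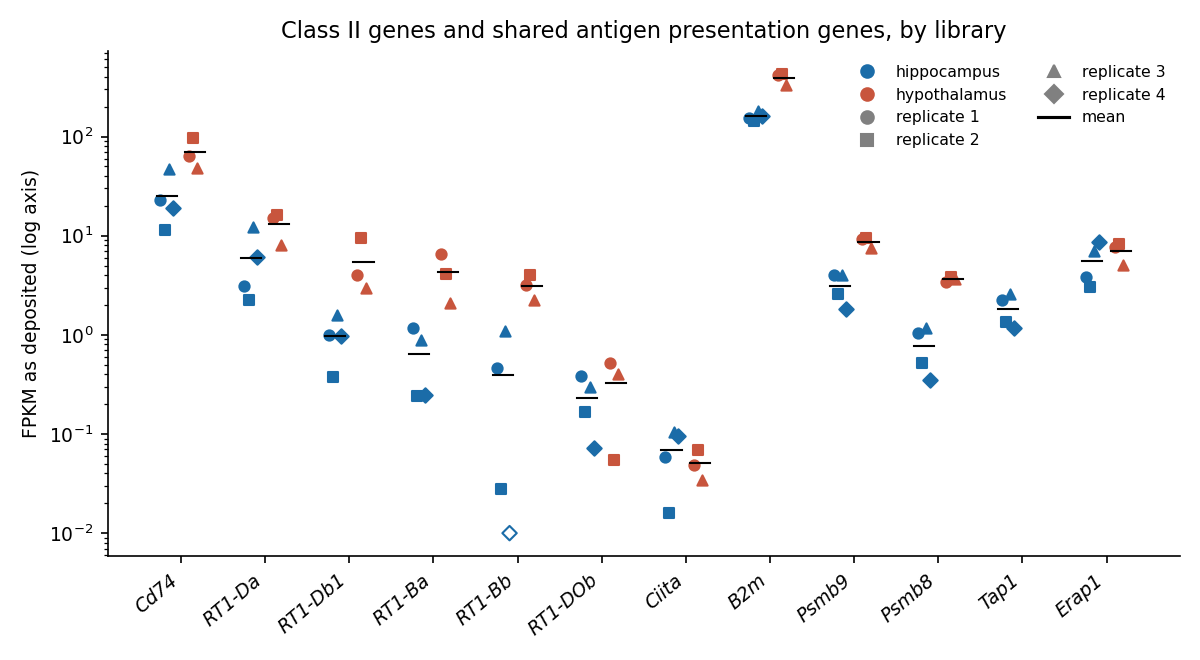
FPKM as deposited (log axis) of class II genes, Cd74, Ciita and class I supply genes, with 1 point per library, colour for tissue, shape for replicate and a black line for the mean. An open point stands for RT1-Bb in hippocampus replicate 4, which was listed at 0, and Tap1 has hippocampal values alone. Hippocampus replicate 2 is the lowest of its tissue for Cd74, RT1-Da, RT1-Db1 and RT1-Ba, and no hypothalamic point of RT1-Db1, RT1-Ba, RT1-Bb, Psmb8 or Psmb9 lies among the hippocampal ones. On rescaled values, 24.4% of all symbols compared were higher in every hypothalamic library.

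Summed over all class II loci, FPKM was 6.22, 3.28, 16.1 and 7.46 in hippocampus and 29.9, 34.2 and 16.5 in hypothalamus. Hippocampus differed by 4.93 times between its lowest and its highest library and hypothalamus by 2.07 times. Relative to Cd74 the sum was steadier, between 0.274 and 0.390 in hippocampus and between 0.340 and 0.474 in hypothalamus. RT1-Da alone averaged 5.95 of 8.28 FPKM in hippocampus and 13.1 of 26.9 FPKM in hypothalamus, and the ratio was computed for the sum and not for each chain.

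Summed markers of border tissue moved with the class II sum, though not every marker gene or class II chain did. RT1-Ba was highest in replicate 1 of both tissues. The 4 of 6 perivascular macrophage genes found in the tables (Mrc1, Cd163, Lyve1 and Pf4) summed to 2.91, 2.49, 10.22 and 4.76 FPKM in hippocampus and to 28.3, 60.4 and 12.6 FPKM in hypothalamus. The 7 meningeal genes, among them collagens and decorin, summed to 84.4, 32.8, 282 and 99.3 FPKM in hippocampus and to 196, 434 and 79.4 FPKM in hypothalamus. Within each tissue both sums ordered the libraries as the class II sum did, lowest in hippocampus replicate 2 and highest in replicate 3, lowest in hypothalamus replicate 3 and highest in replicate 2. Single genes did not all follow. In hypothalamus the macrophage sum was mostly Pf4, at 19.9, 50.3 and 8.17 FPKM. Mrc1 (5.07, 5.03 and 1.49 FPKM) and Cd163 (1.01, 0.785 and 0.370 FPKM) were highest in replicate 1 there, and Lyve1 was lowest in it. In hippocampus Cd163 and Pf4 kept the order. Mrc1, Lyve1 and the meningeal genes Col1a1 and Aldh1a2 were lowest in hippocampus replicate 1, and Dcn was highest in replicate 4, at 54.2 FPKM. None of these 4 macrophage genes was at 0 in any library, and 1 of the 7 meningeal genes, Col1a2, was listed at 0 in every library.

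The order in hypothalamus was shared with the summed FPKM of several other lists, microglia and astrocytes among them, while the full order in hippocampus was not. The 11 microglial genes summed to between 203 and 268 FPKM in hippocampus, highest in replicate 1, and to between 412 and 442 FPKM in hypothalamus. The choroid plexus genes summed to 4782, 35.3, 6024 and 2119 FPKM in hippocampus, so replicate 2 was lowest and replicate 3 highest there as well, and to between 44.2 and 77.3 FPKM in hypothalamus. Taken as a mean of log2(FPKM + 1), at 4.8306, 1.05, 5.53 and 4.8341 in hippocampus, the choroid plexus list had the same order as the class II sum in both tissues. The 4 B cell genes summed to at most 0.784 FPKM, the 7 T cell genes to at most 8.03 FPKM and the 5 granulocyte genes to at most 2.67 FPKM in any library. The part that border cells or choroid plexus had in the class II values was not tested.

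**Figure D3:**
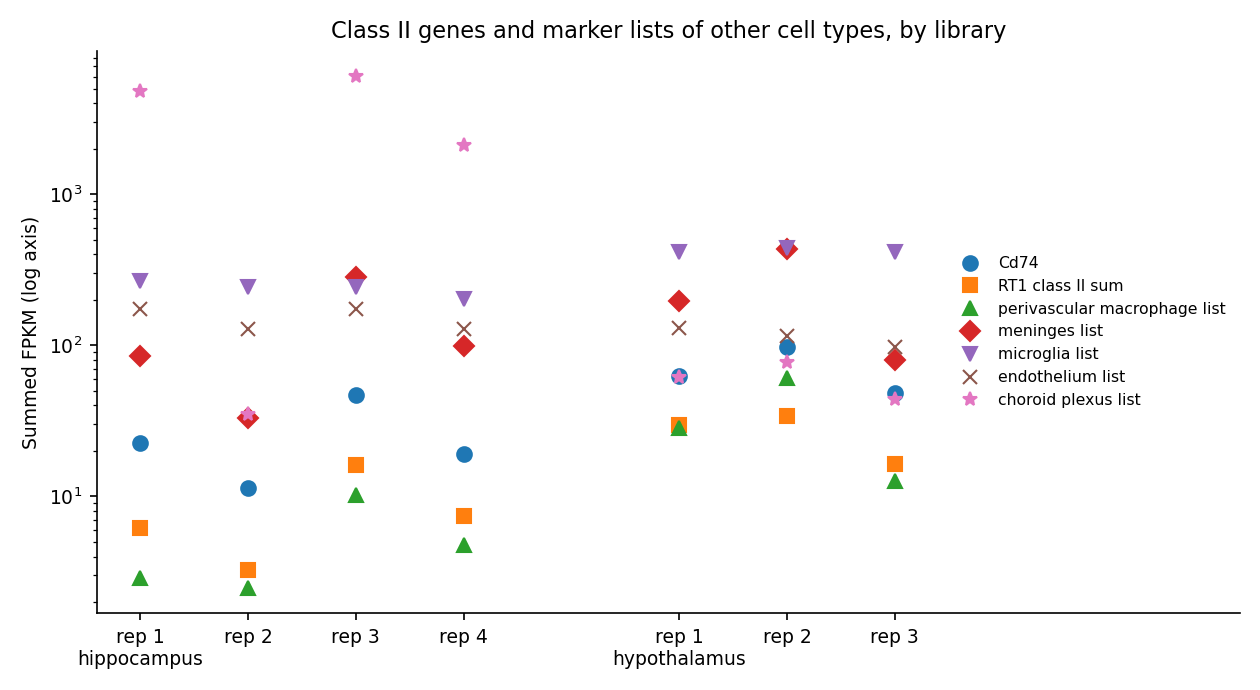
Summed FPKM (log axis) of Cd74, the RT1 class II genes and 5 lists of cell type markers in each of the 7 libraries, 1 symbol per series. Cd74, the class II sum, the perivascular macrophage list and the meninges list are all lowest in hippocampus replicate 2 and highest in replicate 3, and highest in hypothalamus replicate 2, while the microglia list stays between 203 and 268 FPKM in hippocampus.

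Between tissues, members were compared without a test, because the table of each tissue was made separately and tissue and table cannot be told apart. Values were rescaled so that the symbols found in both tables added up to 1000000 in each library, and the highest locus stood for its symbol. A call required that each library of 1 tissue exceeded all libraries of the other and that the means of log2(value + 1) were at least 1 apart. Among all 10736 symbols compared, 14.5% were called higher in hippocampus and 13.4% higher in hypothalamus. With separation of the libraries alone and no minimum size the shares were 28.2% and 24.4%, and of the 20 members described next it held for 1 and 7. With FPKM as deposited and the full rule the shares were 8.64% and 16.9%, so that hippocampus held 33.8% of all calls in place of 52.0%.

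Of the 40 members in both tables, 20 were compared, of which 1 was called higher in hippocampus and 6 higher in hypothalamus. With FPKM as deposited it was 1 and 9. Of the 20 members, 12 passed the minimum of 1 FPKM in both tissues, 6 through hypothalamus alone (Psmb8, RT1-Ba, RT1-Bb, RT1-Db1, RT1-T24-2 and RT1-T24-3) and 2 through hippocampus alone (RT1-A2 and RT1-N2). A member that passed through 1 tissue had to differ, and that holds for 6 of the 7 members called. The counts are therefore no evidence on the members as a group.

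On the log2(rescaled FPKM + 1) scale, differences are given as hippocampus minus hypothalamus and understate the change of low genes. The hippocampal call was RT1-N2, with a difference of 2.35. The hypothalamic calls were RT1-T24-2 at -7.59, RT1-Bb at -2.18, RT1-Ba at -1.95, RT1-Db1 at -1.78, Psmb8 at -1.62 and Psmb9 at -1.15. The 3 class II genes called had all passed the minimum through hypothalamus alone. RT1-Da, the single class II gene that passed it in both tissues, differed by -1.02 but overlapped, and it was called when hippocampus replicate 3 was left out.

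B2m and Cd74 stood at the edge of the rule. B2m differed by -0.98 without overlap, under the required 1, and was called higher in hypothalamus in 6 of 17 alternative settings. Cd74 differed by -1.29 but overlapped after rescaling, and was called in 3 of 17. Without hippocampus replicate 3, which among the hippocampal libraries had the highest class II and meningeal sums, 10 members were called higher in hypothalamus, against 15.2% of all symbols in that setting, the additions being B2m, Cd74, RT1-Da and RT1-T24-3. RT1-Db1 and RT1-T24-2 were called in all 17 settings. Psmb9 lost its call without hippocampus replicate 4 (-0.95) and with a pseudocount of 5 (-0.89), and Psmb8 lost its call with a pseudocount of 5 (-0.91). With a minimum mean of 5 FPKM, Psmb8, RT1-Ba, RT1-Bb and RT1-N2 were too low to be compared.

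Of 11 class I genes compared, 1 was called in each direction, which is 9.09% each way against 14.5% and 13.4% of all symbols and so gives no result about the class. By their highest locus, RT1-A2 differed by 2.15, RT1-A1 by 0.27, RT1-S3 by -0.33 and RT1-M3-1 by -0.81, all with overlap. Which locus stood for a gene mattered here. With loci summed, RT1-A1 differed by 1.42 and was called higher in hippocampus, as it was without hippocampus replicate 1 (1.40 by its highest locus) and in 3 of 17 settings in all. RT1-M3-1 differed by 0.19 with loci summed, and by -1.02 with FPKM as deposited, where it was called higher in hypothalamus. RT1-CE16 and RT1-CE14 differed by -3.16 and -2.30, but with libraries listed at 0 in hypothalamus the tissues overlapped. Without hypothalamus replicate 2, RT1-CE16 (1.84) and RT1-A2 (2.56) were called higher in hippocampus and RT1-CE14 (-5.17) higher in hypothalamus. The median difference over all symbols compared was 0.05, and with FPKM as deposited it shifted to -0.21. No median is given over the members, since several had passed the minimum through 1 tissue alone.

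**Figure D4:**
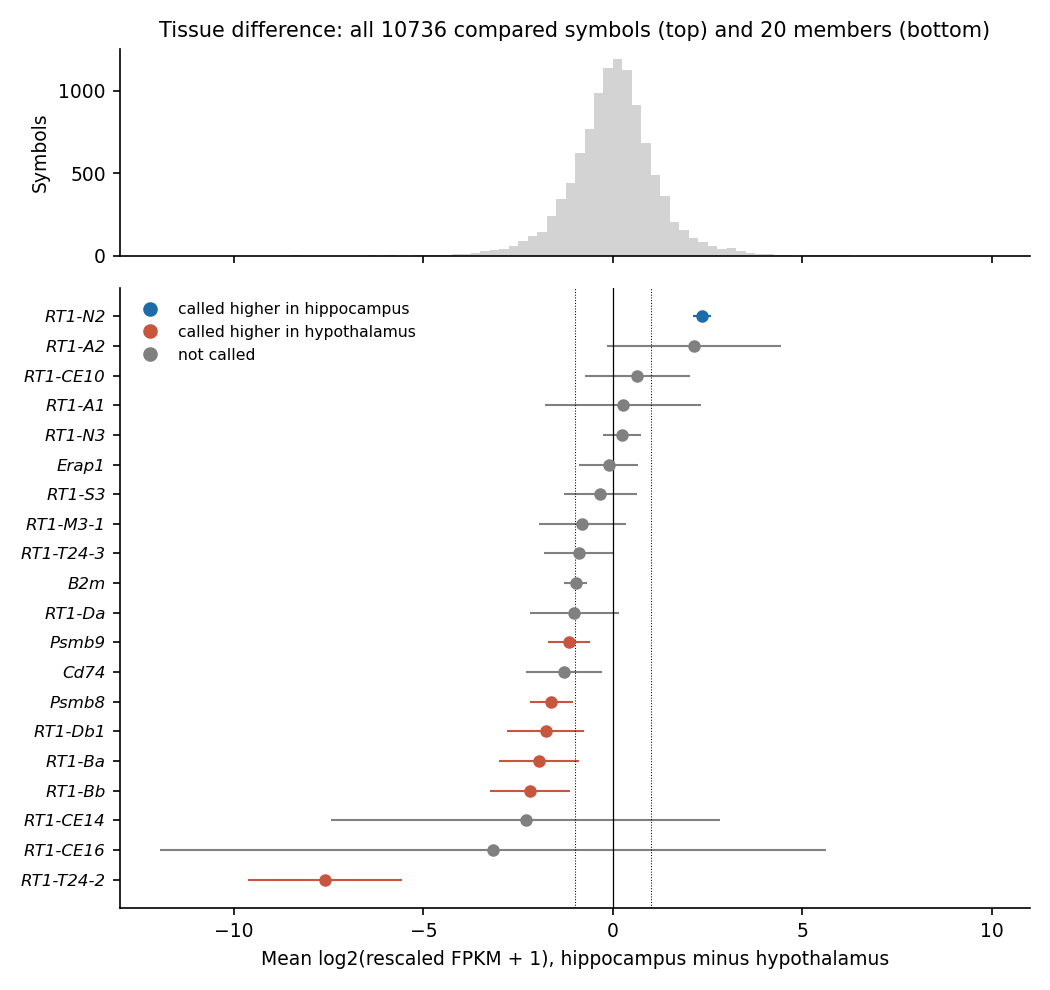
Top: histogram of the difference in mean log2(rescaled FPKM + 1), hippocampus minus hypothalamus, over the 10736 symbols compared. Bottom: the 20 members, each point the difference and each bar the square root of the sum of both tissues' squared SDs to either side, with dotted lines at a difference of 1 in either direction and colour for the call. RT1-Db1, RT1-Ba and RT1-Bb lie between -1.78 and -2.18, and the widest bars belong to RT1-CE16 and RT1-CE14.

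Other genes of the pathway were given from lists chosen by role, with calls to be read against the same 14.5% and 13.4%. Counts with FPKM as deposited are to be read against 8.64% and 16.9%. Psme2, Socs1 and Gbp5 averaged 0.892, 0.327 and 0.548 FPKM in hippocampus and passed the minimum of 1 FPKM through hypothalamus alone. Their calls below carry the limit given for such members. Of 7 genes of the constitutive proteasome and its activator, 2 were called higher in hypothalamus, and 4 with FPKM as deposited. The former 2 were subunits of the activator PA28, which docks to the proteasome. Psme1 read between 20.2 and 37.0 FPKM in hippocampus and between 67.3 and 86.5 FPKM in hypothalamus, and Psme2 between 0.635 and 1.51 FPKM and between 2.18 and 3.35 FPKM. The 3 highest genes of the list were Psmb7, Psmb5 and Psmd1, with mean FPKM of 132, 94.1 and 61.1 in hippocampus and 295, 214 and 94.9 in hypothalamus. Psmb5, the constitutive subunit that Psmb8 replaces, was thus far above Psmb8 in both tissues. Psmb6, the subunit that Psmb9 replaces, was not above Psmb9 in the same way. It read between 2.57 and 3.87 FPKM in hippocampus, within the range of Psmb9 there, and between 2.84 and 5.15 FPKM in hypothalamus, below every value of Psmb9. Psmb6 also lay far below Psmb5 and Psmb7 in both tissues, and whether its locus held all of its reads was not tested.

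None of 6 genes of class I folding and trimming was called in either direction. The highest were the chaperones Calr, Pdia3 and Hspa5, with mean FPKM of 297, 197 and 183 in hippocampus and 330, 246 and 200 in hypothalamus. Of 13 genes of the class II pathway other than the members, 1 was called in each direction, and with FPKM as deposited 0 in hippocampus and 2 in hypothalamus. Ifi30, a thiol reductase of endosomes, read between 5.23 and 10.4 FPKM in hippocampus and between 16.6 and 22.3 FPKM in hypothalamus. Ctsl1, the protease cathepsin L, read between 66.1 and 103 FPKM in hippocampus and between 36.2 and 64.3 FPKM in hypothalamus. The 3 highest, the cathepsins Ctsb, Ctsd and Ctss, had mean FPKM of 272, 221 and 159 in hippocampus and 409, 144 and 242 in hypothalamus. Of the factors that act on the X and Y boxes, Rfx5, Rfxank, Rfxap, Nfya, Nfyb and Nfyc, none was called after rescaling. With FPKM as deposited, Rfx5 was called higher in hypothalamus. It read between 5.93 and 7.28 FPKM in hippocampus and between 13.4 and 15.3 FPKM in hypothalamus.

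Interferon genes were mixed. Of 15 genes of interferon signalling compared, Jak2 was called higher in hippocampus, and Irf7 and Socs1 higher in hypothalamus. With FPKM as deposited it was 0 and 3. Socs1, an inhibitor of interferon signalling, read between 0.199 and 0.380 FPKM in hippocampus and between 2.24 and 2.39 FPKM in hypothalamus. Irf7 read between 1.28 and 3.50 FPKM in hippocampus and between 4.4 and 7.49 FPKM in hypothalamus, and Jak2 between 10.99 and 15.6 FPKM and between 5.93 and 10.7 FPKM. Irf1, an activator of class I genes, had mean FPKM of 4.61 and 5.99 and was not called. The highest of this list in hippocampus were Jak1, Ifngr1 and Irf3, with mean FPKM of 45.3, 25.4 and 14.6.

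Of 15 interferon-stimulated genes compared, Ifi27 was called higher in hippocampus, and Isg15 and Gbp5 higher in hypothalamus. Ifi27 had mean FPKM of 137 in hippocampus and 67.2 in hypothalamus, Isg15 2.15 and 8.81, and Gbp5 0.548 and 2.01. With FPKM as deposited, the call of Ifi27 was lost and 1 was called higher in hypothalamus. Bst2 and Mx2 were the next highest of the list in hippocampus, with mean FPKM of 19.6 and 5.06 in hippocampus and 46.1 and 8.97 in hypothalamus. Genes that lie among the RT1 genes but present no antigen were called in 2 of 11 cases, Abcf1 higher in hippocampus and Flot1 higher in hypothalamus. Brd2, the remaining gene of the 12 listed, was too low in both tissues to be compared. Gabbr1, Ddx39b and Csnk2b, the highest of that list, had mean FPKM of 425, 159 and 138 in hippocampus and 397, 196 and 193 in hypothalamus, and none of these was called.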

How the data were processed

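Poly-A RNA was sequenced on an Illumina HiSeq 2000, per the labels' protocols. The authors deposited FPKM, 1 table per tissue. The submitters' processing notes name TopHat, TopHat2, Bowtie, Bowtie2, Cufflinks, Cuffdiff and the rat build rn5, without roles or versions. Their annotation, strand setting, library normalization and treatment of multiply matching reads are not given in the sources used here.

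The tables shared 10839 locus numbers, of which 58 carried the same symbol in both, so they were treated as separate runs and joined by symbol. A planned limma test between tissues, conditional on joint normalization, was not run. Loci without the status OK in any library (86 in hippocampus, 24 in hypothalamus) were left out; all member loci had it. SDs used log2(FPKM + 1) of loci that averaged 1 FPKM or more, and differences between tissues used symbols that did so in either tissue, as the text describes. Replicates are separate samples per the labels, with no further statement of their origin. No p-value was computed.

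The members and gene lists were chosen with earlier results of these data known. Named members were those with a locus that averaged 5 FPKM or more in either tissue, every symbol without RT1- in its name, and loci with an SD over 1. Of the other lists, the 3 highest genes and those called are named; RT1 genes outside this rule, factors of the X and Y boxes and Irf1 were added after their values were seen. Alternatives were leaving out each library, other scalings, pseudocounts of 0.1 and 5, other minimum values, and summing the loci of a symbol. The counting and calling steps were tested on simulated data. Promoters came from RefSeq (GRCr8). Python 3.11.15, numpy 2.4.6, pandas 2.3.3 and matplotlib 3.10.9 were used.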

Additional observations from a re-analysis of the deposited data

Results flagged for a closer look

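Of 50 hippocampal results that were checked for a library far from the other 3, 4 had a gap to the nearest library that was a larger share of their range than Dixon's critical value for 4 libraries, and about 2.5 would be found by chance. The RT1-A1 locus XLOC_016796 had a ratio of 0.936, since replicate 1 read 49.0 FPKM and the others at most 4.5 FPKM. The endothelial list had a ratio of 0.844 (replicate 3 highest, at a mean log2(FPKM + 1) of 4.25). The choroid plexus list also had a ratio of 0.844 (replicate 2 lowest, at 1.05). The list of hypothalamic markers had a ratio of 0.892 in hippocampus (replicate 1 highest, at 1.29). Groups of 3, and so all of hypothalamus, were not checked in this way.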

How the results depend on the processing

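No paired analysis was possible because the labels do not say whether the tissues came from the same rats, and each tissue has its own separately processed table. No called value changed sign, but some uncalled ones did. RT1-CE16 went from -3.16 to 1.84 without hypothalamus replicate 2, RT1-M3-1 from -0.81 to 0.19 and RT1-CE10 from 0.64 to -0.095 with loci summed, and Erap1 from -0.11 to at most 0.14 in 4 settings that left out libraries. When each library was left out in turn, members called higher in hippocampus numbered 1 to 3 (main value 1; 2 without hippocampus replicate 1 and 3 without hypothalamus replicate 2), and members called higher in hypothalamus 5 to 10 (main value 6). Loci with an SD over 1 numbered 4 to 7 in hippocampus (main value 6) and 3 to 5 in hypothalamus (main value 5; 3 without replicate 1). Without replicate 1 of either tissue, 2 members were called higher in hippocampus. With a minimum mean of 5 FPKM, 0 of 12 members were called higher in hippocampus and 3 higher in hypothalamus, against 15.7% and 12.9% of all symbols. In that setting 3 of 9 hippocampal and 3 of 12 hypothalamic loci had an SD over 1, against 5.67% and 3.37% of all loci. With loci summed, 2 members were called higher in hippocampus, and 2 hippocampal and 3 hypothalamic genes had an SD over 1. With a pseudocount of 5 it was 1 of 20 loci in hippocampus, against 2.46% of all loci, and 3 of 22 in hypothalamus, against 1.64%. Among symbols with a single locus it was 1 of 13 in each tissue, against 1.15% and 1.02%. Summed FPKM in hippocampus, with a library left out, ranged from 69.3 to 80.1 for class I, from 5.65 to 9.94 for class II and from 74.9 to 88.6 for all RT1 genes. In hypothalamus it ranged from 369 to 7309, from 23.2 to 32.0 and from 392 to 7341. After rescaling, the hippocampal sums were 213, 23.96 and 237, and the hypothalamic class II sum was 63.3, by construction. With loci of at least 5 FPKM alone, the hippocampal class I sum was 50.6 and that of all RT1 genes 56.6. Among the values of single members under alternatives, 319 stayed within 1 SD of the main value and 12 moved further, all with another scaling or pseudocount. These were B2m as deposited (-1.27), Psmb8 and RT1-Ba with a pseudocount of 5 (-0.91 and -1.09), and values of RT1-T24-2, RT1-Bb and RT1-N2. Over all settings RT1-T24-2 ranged from -10.73 to -5.34 (-8.74 without hypothalamus replicate 3), RT1-Bb from -3.75 to -1.02 and RT1-N2 from 1.31 to 2.98. Depth is unknown, so values near 0 carry no counting error.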
